A study of Homo sapiens with 10 samples.

Results

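Metallothioneins are small, cysteine-rich proteins that bind zinc, copper and cadmium, and their genes are among those that answer most strongly to a rise of free zinc. The 8 genes described here were 6 metallothionein genes (MT1E, MT1F, MT1G, MT1M, MT1X and MT2A), MTF1, which encodes the zinc-sensing transcription factor of the family, and SLC30A1, which encodes ZnT1, the exporter that carries zinc out across the plasma membrane. They were chosen by symbol from the 28380 genes counted, and 6 of the 8 had enough counts for a test, against 13378 of all genes. RPE-1 is an established line of telomerase-immortalized human retinal pigment epithelial cells. Cells in complete medium with serum received 25 µM sulforaphane (SFN), an isothiocyanate from cruciferous vegetables, or the vehicle DMSO, for 4 h, with 5 replicates per group. No other genotype or agent distinguished the groups, and no zinc or chelator was added.

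As background, MTF1 is held in the cytosol at low zinc, moves to the nucleus when its zinc fingers fill, and binds metal response elements upstream of metallothionein genes and of SLC30A1. Electrophiles that modify cysteine thiols can release zinc from metallothionein, and metallothionein genes are also known targets of glucocorticoids and oxidative stress. In zinc-loaded cells SLC30A1 and the metallothioneins are usually described as rising together.

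The promoters of MT2A, MT1X and SLC30A1 are shown because MTF1 is the textbook regulator of all of them. RefSeq sequences (GRCh38.p14) were present for 4 of the 8 genes, MT2A, MT1X, MTF1 and SLC30A1. Each run covers the 250 bases before the annotated start on the gene's own strand, and capitals mark the core of the metal response element, TGCACNC or TGCGCNC, on either strand. MT2A lies on the plus strand (chr16:56608334-56608583), MT1X on the plus strand (chr16:56682220-56682469) and SLC30A1 on the minus strand (chr1:211579162-211579411).
MT2A: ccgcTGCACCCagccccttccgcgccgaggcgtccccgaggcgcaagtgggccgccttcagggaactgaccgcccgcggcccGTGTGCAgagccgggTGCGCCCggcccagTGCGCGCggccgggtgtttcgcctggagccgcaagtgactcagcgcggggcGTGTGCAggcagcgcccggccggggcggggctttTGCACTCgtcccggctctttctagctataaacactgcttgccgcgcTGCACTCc
MT1X: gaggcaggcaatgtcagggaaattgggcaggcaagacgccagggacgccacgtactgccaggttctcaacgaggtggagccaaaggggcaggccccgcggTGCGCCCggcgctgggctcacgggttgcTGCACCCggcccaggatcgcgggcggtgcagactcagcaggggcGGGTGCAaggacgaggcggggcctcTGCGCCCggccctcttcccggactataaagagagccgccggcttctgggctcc
SLC30A1: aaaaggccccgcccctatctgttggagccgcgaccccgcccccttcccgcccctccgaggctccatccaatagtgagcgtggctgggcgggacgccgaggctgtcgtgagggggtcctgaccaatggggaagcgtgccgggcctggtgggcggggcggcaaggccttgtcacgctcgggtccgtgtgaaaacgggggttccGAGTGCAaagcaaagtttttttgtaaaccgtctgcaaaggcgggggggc
MT2A held 7 matches, MT1X held 4 and SLC30A1 held 1, while the window of MTF1 held 0. Over all 35116 promoter windows of this length, 24.8% had at least 1 match, and 11 had 7 or more. The core of the antioxidant response element, TGACNNNGC, which NRF2 binds, matched once each in MT2A, MT1X and SLC30A1 and in 10.9% of all windows. The heat shock element core GAANNTTC matched in none of these 4 windows and in 5.78% of all. No match of 1 motif overlapped a match of another. A match is a run of letters and not a site of binding.

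Total counts ranged from 15689294 to 20666692 in the DMSO libraries and from 12375860 to 17308706 in the SFN libraries. DMSO replicate 1 stood apart from the other libraries, with a mean Spearman correlation across genes of 0.935 with its group, against 0.979 to 0.982 for the other DMSO libraries. Its short transcripts were high. The median log2 deviation of 169 genes with transcripts under 600 bases, from the mean of all libraries, was 1.19 in DMSO replicate 1 and between -0.452 and -0.256 in the other DMSO libraries. In SFN this deviation was 0.493 in replicate 2, -0.401 in replicate 5 and between 0.0503 and 0.141 in the other libraries. The metallothionein transcripts are themselves short, between 398 and 746 bases, whereas those of MTF1 and SLC30A1 have 7937 and 5893 bases, so each metallothionein fold change is also given without DMSO replicate 1. Of 12 genes that mark retinal pigment epithelium, 6 had a mean of at least 1 CPM (KRT8, KRT18, MITF, OTX2, BEST1 and PMEL), whereas RPE65, RLBP1, SERPINF1 and TYRP1 were at or near 0. The summed level of the 12 markers was 582.5 to 875.8 CPM in DMSO and 566.4 to 992.8 CPM in SFN. Most of it came from 2 keratin genes, KRT8 (means 383.4 CPM in DMSO and 449.3 CPM in SFN) and KRT18 (195.5 and 236.0 CPM). The sum therefore says little about the other markers. Of the 12 markers, 6 were tested and 2 were called, the transcription factors MITF and OTX2, which were lower in SFN (log2 fold changes -1.12 and -0.64, edgeR quasi-likelihood adjusted p = 5.3e-05 and 0.0029). The other 4 had positive log2 fold changes that were not called, at 1.17 for BEST1, 0.27 for KRT18, 0.23 for KRT8 and 0.14 for PMEL. BEST1 (1.68) and KRT8 (0.37) were called higher, and MITF and OTX2 again lower, without DMSO replicate 1. Of 8 markers of other cell types only COL1A1 and PDGFRB, which mark fibroblasts and related cells, reached 1 CPM, and the list summed to 18.81 to 32.48 CPM in DMSO and 16.91 to 23.84 CPM in SFN. Neither was called with all libraries, and both were called lower without DMSO replicate 1 (log2 fold changes -0.53 and -0.43).

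After 4 h of SFN the zinc exporter gene SLC30A1 was 2.99-fold lower, while the metallothionein genes showed no shared change that passed the test. MT2A and MT1E carried nearly all metallothionein counts. MT2A was level between the groups in the comparison of all libraries and higher with SFN without DMSO replicate 1. Relative to MT2A within the same library, MT1E and MT1M fell. Of the 6 genes tested, 1 was called, SLC30A1, and over all 13378 genes tested 23.0% were called (9.07% higher and 13.9% lower) at an adjusted p under 0.05 (quasi-likelihood F-test of edgeR, adjusted by Benjamini-Hochberg). SE stands for the standard error of a log2 fold change. The median log2 fold change of the 6 genes was -0.72, against -0.028 over all genes. Without DMSO replicate 1, 1 of the 6 was called higher (MT2A) and 1 lower (SLC30A1), the median was 0.07, and 46.1% of all genes were called.

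**Figure D1:**
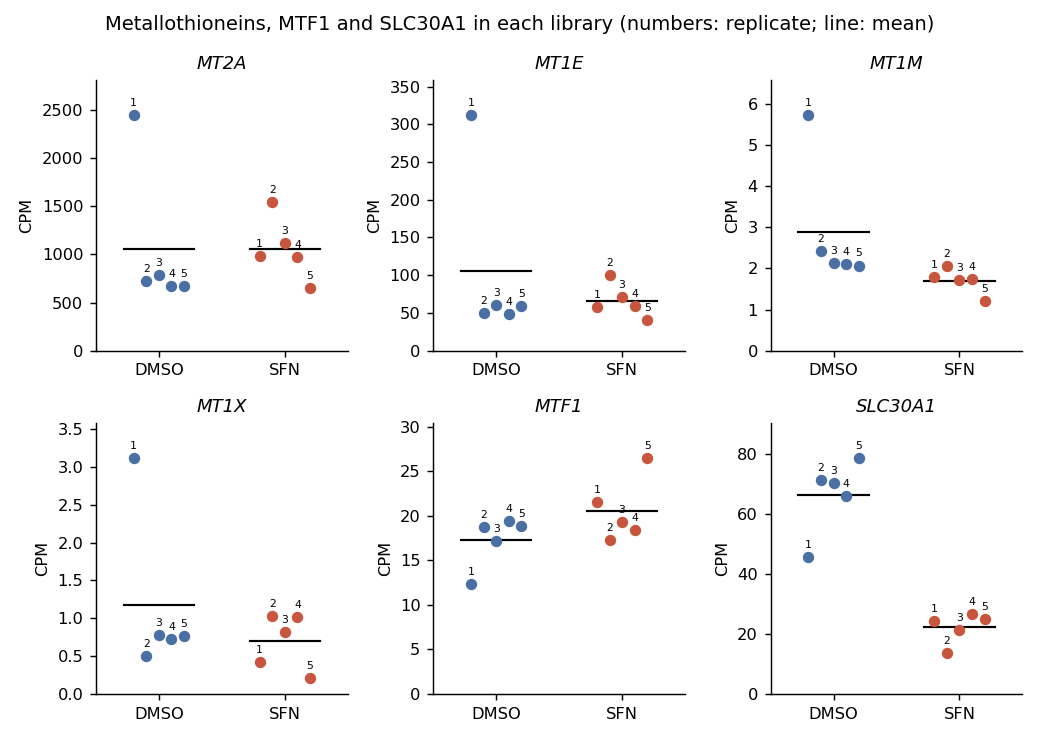
Level of MT2A, MT1E, MT1M, MT1X, MTF1 and SLC30A1 in CPM (linear axes from 0) in each of 5 DMSO and 5 SFN libraries, with the replicate number above each point and a line at the group mean. DMSO replicate 1 is the highest library for the 4 metallothioneins, at 2446 CPM for MT2A, and all SFN values of SLC30A1 lie below all DMSO values.

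MT2A encodes the main metallothionein of most human cells. On GRCh38 it spans chromosome 16, positions 56608584 to 56609497, on the plus strand, with 3 exons. CPM are counts scaled by TMM to a common library size. MT2A had 2446 CPM in DMSO replicate 1 and 724.8, 787.8, 669.7 and 669.1 CPM in DMSO replicates 2 to 5. In SFN replicates 1 to 5 it had 979.4, 1546, 1113, 969.8 and 647.9 CPM. Apart from DMSO replicate 1, 4 of the SFN libraries were above every DMSO library, and SFN replicate 5 was below them all. The log2 fold change was -0.01 (SE 0.38, 95% interval -0.84 to 0.81, edgeR quasi-likelihood adjusted p = 0.99). Without DMSO replicate 1 it was 0.55 (SE 0.18, edgeR quasi-likelihood adjusted p = 0.021), a 1.47-fold increase from 712.9 ± 56.4 CPM (SD, n = 4). Over 19 alternatives the adjusted p of MT2A ranged from 0.000323 to 0.998, and 2 of them called it, the one without DMSO replicate 1 and the one with quality weights for libraries, which called 59.2% of all genes (29.0% higher and 30.2% lower).

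The level of MT2A moved with that of other short transcripts. Among the genes whose log2 CPM followed MT2A most closely across the 10 libraries, of 10038 compared, were AURKAIP1, a mitochondrial ribosome gene (Pearson r = 0.995), and ELOB, an elongin subunit (r = 0.995). In all, 984 genes had an r above 0.9, and DMSO replicate 1 is 1 of the 10 points in each. With each library's short-transcript deviation as a term in the model, the MT2A log2 fold change was -0.02 (95% interval -0.18 to 0.13). That deviation was itself higher in SFN replicates 1 to 4 (0.0503 to 0.493) than in DMSO replicates 2 to 5 (-0.452 to -0.256). SFN replicate 5 (-0.401) and DMSO replicate 1 (1.19) went the other way. The term can therefore also take up part of a difference between the groups.

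**Figure D2:**
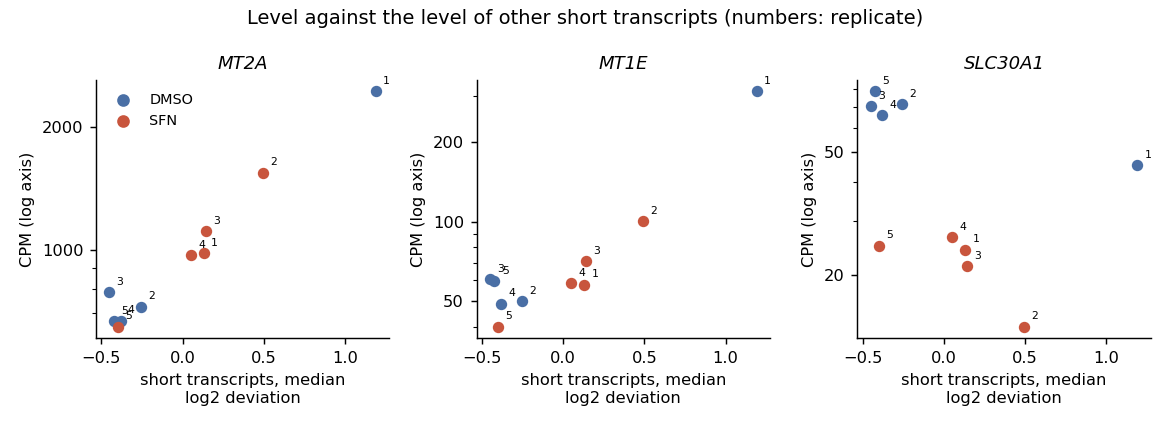
Level of MT2A, MT1E and SLC30A1 (CPM, log axes) against the median log2 deviation of 169 other short transcripts in the same library, with DMSO and SFN libraries in different colours and replicate numbers beside the points. MT2A and MT1E climb from the libraries near -0.4 to DMSO replicate 1 at 1.19, while SLC30A1 separates by treatment.

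MT1E, another widely expressed metallothionein gene, lies on chromosome 16 from 56625475 to 56627112 on the plus strand. It had 312.2 CPM in DMSO replicate 1 and 50.0, 60.6, 49.0 and 59.4 CPM in DMSO replicates 2 to 5, with 57.8, 100.6, 70.8, 58.7 and 40.1 CPM in SFN replicates 1 to 5. The groups overlapped with and without DMSO replicate 1. The log2 fold change was -0.70 (SE 0.52, 95% interval -1.83 to 0.44, edgeR quasi-likelihood adjusted p = 0.39), and without DMSO replicate 1 it was 0.25 (SE 0.19), so that its direction rested on that library. With the term for short transcripts it was -0.54 and passed the test (adjusted p = 0.00011, from 0.00011 to 0.728 over 18 alternatives). In that fit 51.0% of all genes were called (25.7% higher and 25.3% lower).

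MT1M, on chromosome 16 from 56632659 to 56633981 on the plus strand, belongs to the same metal-binding subfamily. Its counts were low, 92, 53, 38, 35 and 35 in DMSO replicates 1 to 5 and 30, 24, 23, 26 and 17 in SFN replicates 1 to 5. In CPM the SFN libraries ranged from 1.2 to 2.07 and the DMSO libraries from 2.07 to 5.73, so the groups met without overlapping. Of the 6 genes tested, MT1M and SLC30A1 had no overlap between the groups, against 19.9% of all genes (8.78% with SFN higher and 11.1% with SFN lower). The MT1M log2 fold change was -0.76 (SE 0.32, edgeR quasi-likelihood adjusted p = 0.12), and -0.37 without DMSO replicate 1. With the term for short transcripts it was -0.78 (adjusted p = 0.0023, from 0.00233 to 0.227 over 19 alternatives).

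MT1X, a close relative on chromosome 16 from 56682470 to 56684196, had few counts in these libraries. They were 50, 11, 14, 12 and 13 in DMSO replicates 1 to 5 and 7, 12, 11, 15 and 3 in SFN replicates 1 to 5. The groups overlapped, and the log2 fold change was -0.75 (SE 0.57, edgeR quasi-likelihood adjusted p = 0.40), or -0.01 without DMSO replicate 1. An lncRNA, ENSG00000259827, overlaps MT1X on the same strand, though none of its exons reaches the last exon of MT1X.

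MT1F and MT1G did not pass the filter on low counts. MT1F, on chromosome 16 from 56657731 to 56660698, had 5, 3, 3, 1 and 1 counts in DMSO replicates 1 to 5 and 9, 5, 2, 4 and 1 in SFN replicates 1 to 5. MT1G, on the minus strand of chromosome 16 from 56666730 to 56668065, had 0, 1, 0, 3 and 0 counts in DMSO and 0 in each SFN library. Neither was tested in the main fit, and counts this low limit what either gene can show. In the alternative fit with DESeq2, MT1F had a log2 fold change of 1.01 (SE 0.78, DESeq2 adjusted p = 0.43). Of 15 other metallothionein genes and pseudogenes, 6 were among the genes counted and 2 were tested, the pseudogenes MT1P3 (log2 fold change -0.73, SE 0.49, and -0.39 without DMSO replicate 1) and MT2P1 (log2 fold change -0.43, SE 0.59, which turned to 0.30 without DMSO replicate 1), and 0 were called at an adjusted p under 0.05 by edgeR's quasi-likelihood test, with 0 at an unadjusted p under 0.05 and 0 without DMSO replicate 1.

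Because the metallothionein genes share sequence, reads may have been divided among copies in the counting. Of the 270 words of 31 bases in the last 300 bases of each transcript, where QuantSeq reads start, 37% occurred more than once in the genome for MT2A. The share was 23.7% for MT1E, 38.9% for MT1M, 37.8% for MT1X, 41.5% for MT1G and 13% for MT1F. For MTF1 and SLC30A1 all 270 words occurred once. Values of single metallothioneins are therefore uncertain. Their sum over all 12 MT1 and MT2 genes and pseudogenes counted was also examined, since a split between copies does not change it. Reads dropped in the counting for matching several places would be missing from the sum too, and whether any were dropped is not known.

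The summed metallothionein level was 2772 CPM in DMSO replicate 1 and 779.4, 853.6, 723.1 and 732.2 CPM in DMSO replicates 2 to 5. In SFN replicates 1 to 5 it was 1042, 1652, 1189, 1032 and 690.2 CPM. The means were 1172 ± 896 CPM (SD, n = 5) in DMSO and 1121 ± 349 CPM (SD, n = 5) in SFN, and 772.1 ± 59.7 CPM (SD, n = 4) in DMSO without replicate 1. The mean difference on the log2 scale was 0.12, and 0.49 without DMSO replicate 1. The sum follows MT2A, which held 88.3% to 93.0% of metallothionein counts in DMSO and 93.6% to 94.0% in SFN.

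The makeup of the metallothionein counts differed between the groups. MT1E counts were 12.8%, 6.91%, 7.70%, 7.32% and 8.89% of the MT2A count in DMSO replicates 1 to 5. In SFN replicates 1 to 5 they were 5.91%, 6.51%, 6.36%, 6.06% and 6.20%. All SFN libraries lay below all DMSO libraries, within a narrow band. The log2 ratio fell by 0.45 (two-sided exact permutation test, p = 0.0079, adjusted p = 0.012 over 3 ratios, n = 5 per group), and 0.0079 is the smallest p that 5 against 5 libraries allow. Without DMSO replicate 1 the fall was 0.31 on the log2 scale.

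MT1M was also lower relative to MT2A. Its counts were 0.235%, 0.336%, 0.273%, 0.319% and 0.314% of the MT2A count in DMSO replicates 1 to 5 and 0.186%, 0.137%, 0.157%, 0.184% and 0.191% in SFN replicates 1 to 5. The groups did not overlap. The log2 ratio fell by 0.79 (two-sided exact permutation test, p = 0.0079, adjusted p = 0.012 over 3 ratios, n = 5 per group), and by 0.87 without DMSO replicate 1. A ratio within a library does not depend on the scaling of libraries and shows unequal change, not which of the genes changed. MT1F, MT1G and MT1X had too few counts for a ratio.

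**Figure D3:**
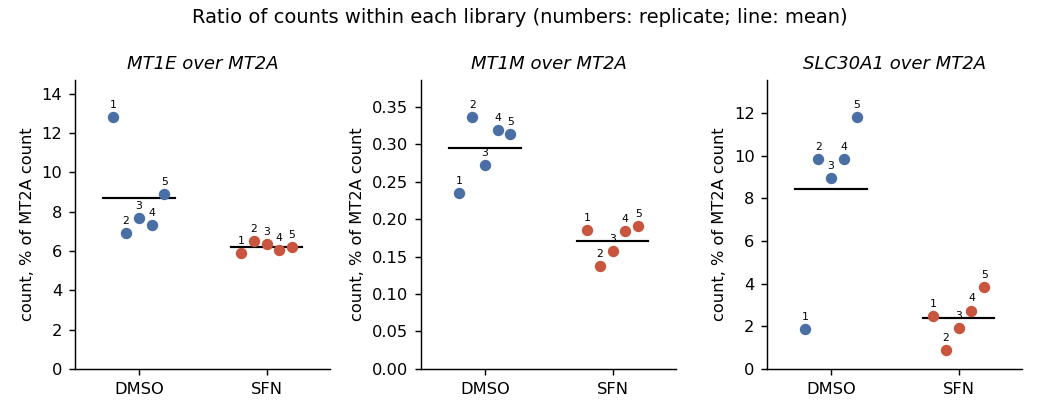
Counts of MT1E, MT1M and SLC30A1 as a percentage of the MT2A count in the same library (linear axes from 0), for 5 DMSO and 5 SFN libraries, with replicate numbers and a line at the group mean. The SFN libraries lie below all DMSO libraries for MT1E and MT1M, and DMSO replicate 1, at 1.86%, falls among the SFN libraries for SLC30A1.

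MTF1, the zinc-sensing factor itself, lies on the minus strand of chromosome 1 from 37809574 to 37859592 and has 11 exons. It had 12.4, 18.7, 17.2, 19.5 and 18.9 CPM in DMSO replicates 1 to 5 and 21.6, 17.3, 19.3, 18.4 and 26.5 CPM in SFN replicates 1 to 5. The groups overlapped, with DMSO replicate 1 lowest and SFN replicate 5 highest. The log2 fold change was 0.25 (SE 0.16, 95% interval -0.09 to 0.59, edgeR quasi-likelihood adjusted p = 0.30). Its level was most like those of CSE1L (Pearson r = 0.973 across the 10 libraries) and USPL1 (r = 0.968). Without DMSO replicate 1 the MTF1 log2 fold change was 0.15 (edgeR quasi-likelihood adjusted p = 0.35), and with quality weights 0.10 (limma-voom adjusted p = 0.37). With the term for short transcripts it was 0.32 (adjusted p = 0.0079, from 0.00787 to 0.632 over 19 alternatives). That fit, which called 51.0% of all genes, was the only 1 of the 19 to call MTF1.

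SLC30A1, the zinc exporter of the plasma membrane, lies on the minus strand of chromosome 1 from 211571568 to 211579161 and has 2 exons. It had 45.5, 71.5, 70.4, 66.0 and 78.6 CPM in DMSO replicates 1 to 5. In SFN replicates 1 to 5 it had 24.2, 13.6, 21.4, 26.6 and 24.9 CPM. DMSO replicate 1 was the lowest DMSO library and SFN replicate 2 the lowest SFN library, yet the groups were far apart. SLC30A1 fell from 66.4 ± 12.5 CPM (SD, n = 5) to 22.2 ± 5.12 CPM (SD, n = 5), a log2 fold change of -1.58 (SE 0.19, 95% interval -2.01 to -1.16, edgeR quasi-likelihood adjusted p = 0.00014). Only 292 of the 13378 genes had a lower log2 fold change, and 5.76% of all genes were called lower with a log2 fold change under -1. All 19 alternatives called it, with log2 fold changes between -1.69 and -1.45 and adjusted p-values from 2.82e-12 to 0.0014. The promoter window of this gene holds 1 metal response element core, against 7 for MT2A.

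In RNA from a whole culture, less transcript per cell and fewer cells that carry it cannot be told apart. The genes most like SLC30A1 across the 10 libraries were IFIT5, an interferon-induced gene (Pearson r = 0.992, log2 fold change -1.64), FIGNL1, a DNA repair ATPase (r = 0.990, log2 fold change -1.37), and SERTAD4 (r = 0.990, log2 fold change -1.22). Of 10038 genes, 514 had an r above 0.9 with SLC30A1. The r includes the difference between the groups, so a gene with a strong fall in SFN can score high through that alone. Relative to MT2A within a library, SLC30A1 counts were 1.86%, 9.87%, 8.94%, 9.85% and 11.8% in DMSO replicates 1 to 5 and 2.47%, 0.885%, 1.93%, 2.74% and 3.85% in SFN replicates 1 to 5. That ratio fell by 1.75 on the log2 scale (two-sided exact permutation test, p = 0.040, adjusted p = 0.040 over 3 ratios, n = 5 per group). The groups overlapped through DMSO replicate 1, without which the ratio fell by 2.23. Leaving out any 1 of the other 9 libraries raised the p to between 0.063 and 0.079. The ratio sets a transcript of 5893 bases against a short one of 401 bases. In each group it was lowest where the short-transcript deviation was highest, in DMSO replicate 1 (1.19) and SFN replicate 2 (0.493). Among SFN libraries it was highest in replicate 5, where that deviation was lowest (-0.401). How much of the fall follows the level of short transcripts was not tested.

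Most other zinc transporters were not called, and those that were had smaller log2 fold changes than SLC30A1. The SLC30 family carries zinc out of the cytosol, into vesicles, the Golgi or the medium, and the SLC39 (ZIP) family carries zinc into it. Of 24 zinc transporter genes other than SLC30A1, which besides these families included TMEM163, a vesicular zinc transporter, 16 were tested, 4 rose and 1 fell by edgeR's quasi-likelihood test, against 9.07% of all genes called higher and 13.9% lower. Their median log2 fold change was 0.24, against -0.028 over all genes, and 14 of the 16 were positive. Without DMSO replicate 1, 17 were tested, 6 rose and 1 fell, against 22.5% and 23.5% of all genes. Of the 5 called with all libraries, SLC30A7 was called in 19 of 19 alternatives, SLC39A9 in 18, SLC30A4 and SLC30A6 in 9 each and SLC39A7 in 8.

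**Figure D4:**
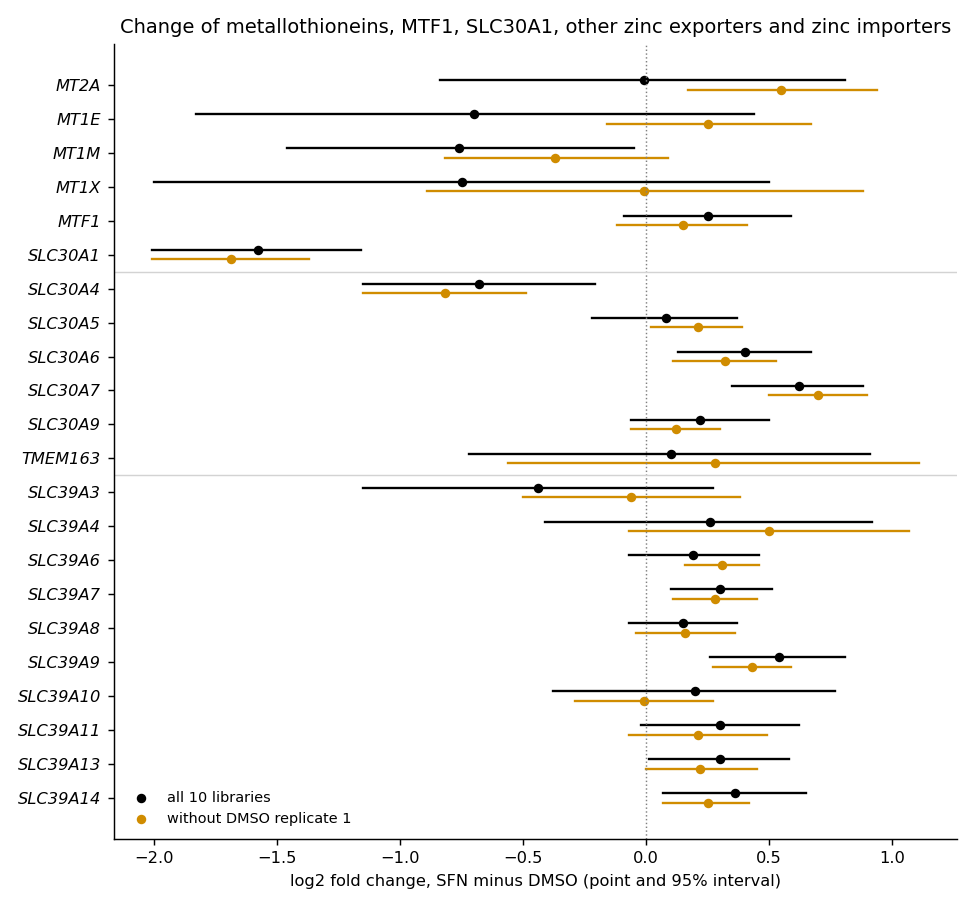
Log2 fold change of SFN against DMSO with its 95% interval for MT2A, MT1E, MT1M, MT1X, MTF1 and SLC30A1 (top), 6 other zinc exporters (middle) and 10 zinc importers (bottom), from all 10 libraries (black) and without DMSO replicate 1 (orange). SLC30A1 lies at -1.58 and SLC30A4 at -0.68. The points of MT1E, MT1X and MT2A shift most when DMSO replicate 1 is left out. MT1M moves from -0.76 to -0.37, and the importer SLC39A3 moves much alike, from -0.44 to -0.06.

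Among the exporters, SLC30A7, which loads zinc into the Golgi and the early secretory pathway, rose most. It had 59.5, 43.6, 39.4, 49.2 and 49.7 CPM in DMSO replicates 1 to 5 and 73.9, 70.8, 80.5, 68.2 and 76.0 CPM in SFN replicates 1 to 5. No SFN library overlapped the DMSO libraries (log2 fold change 0.62, SE 0.12, edgeR quasi-likelihood adjusted p = 0.0031). SLC30A6, which also serves the Golgi, together with SLC30A5, rose from 43.05 ± 5.72 to 56.8 ± 6.11 CPM (SD, n = 5 each), its log2 fold change being 0.40 (SE 0.12, edgeR quasi-likelihood adjusted p = 0.036, from 2.33e-05 to 0.197 over 19 alternatives). Its call held in 3 of the 10 fits that left out 1 library.

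SLC30A4, a vesicular zinc transporter, fell with all libraries in the fit. It had 7.91, 14.8, 16.04, 13.01 and 15.4 CPM in DMSO replicates 1 to 5 and 8.29, 5.69, 7.52, 9.78 and 10.5 CPM in SFN replicates 1 to 5. DMSO replicate 1 lay among the SFN libraries, and the log2 fold change was -0.68 (SE 0.21, edgeR quasi-likelihood adjusted p = 0.039) and -0.82 without that library. Over 19 alternatives its adjusted p ranged from 1.69e-05 to 0.149, and its call held in 2 of the 10 fits that left out 1 library (without SFN replicate 2, adjusted p = 0.085). SLC30A5 and SLC30A9, which were not called, had log2 fold changes of 0.08 (95% interval -0.22 to 0.37) and 0.22 (95% interval -0.06 to 0.50).

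Among the importers, SLC39A9, a Golgi ZIP, had 40.2, 62.9, 58.2, 59.1 and 59.1 CPM in DMSO replicates 1 to 5 and 79.0, 80.5, 79.7, 77.5 and 88.5 CPM in SFN replicates 1 to 5. All SFN libraries were above all DMSO libraries (log2 fold change 0.54, SE 0.12, edgeR quasi-likelihood adjusted p = 0.0090). SLC39A7, which releases zinc from the endoplasmic reticulum, rose from 212.2 ± 15.05 to 261.7 ± 12.2 CPM (SD, n = 5 each; log2 fold change 0.30, SE 0.09, edgeR quasi-likelihood adjusted p = 0.035, from 0.000262 to 0.203 over 19 alternatives), a call that held in 3 of the 10 fits that left out 1 library. SLC39A6, SLC39A14, SLC39A10 and SLC39A13, the importers with the highest mean levels among those not called, had log2 fold changes of 0.19, 0.36, 0.20 and 0.30. SLC39A10, which MTF1 is known to repress in zinc-rich cells, had a 95% interval of -0.38 to 0.77.

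**Figure D5:**
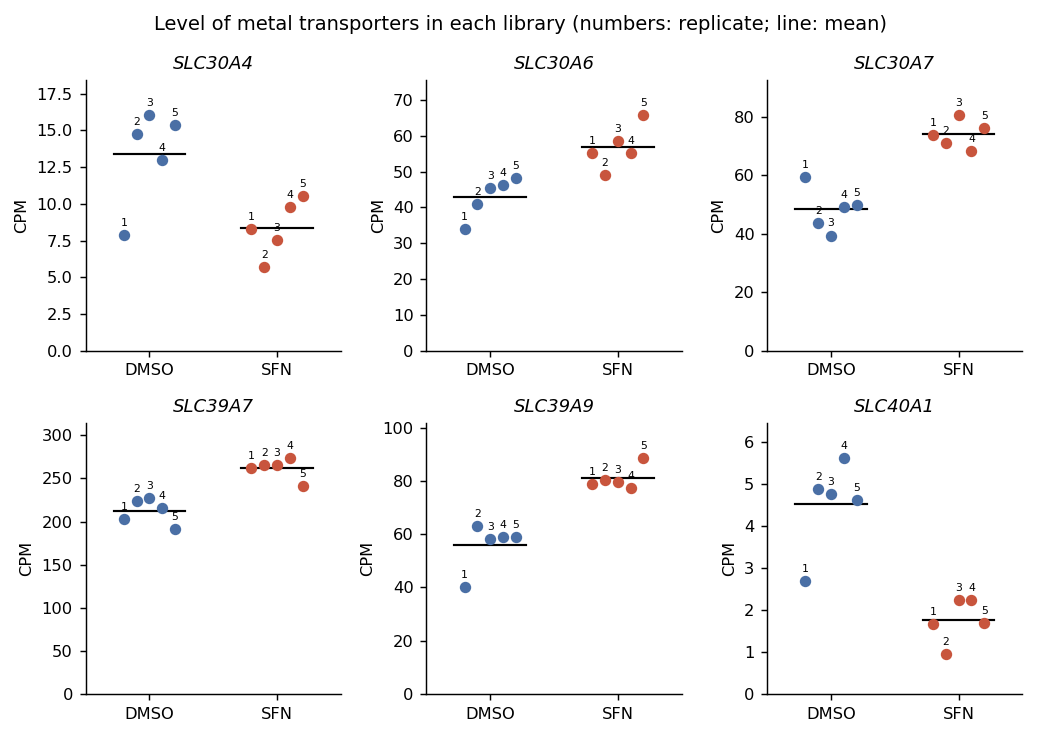
Level of 5 called zinc transporters and of the iron exporter SLC40A1 (CPM, linear axes from 0) in each of 5 DMSO and 5 SFN libraries, with replicate numbers and a line at the group mean. SLC30A6, SLC30A7, SLC39A7 and SLC39A9 are higher and SLC40A1 lower in all SFN libraries than in any DMSO library, and DMSO replicate 1 lies among the SFN libraries for SLC30A4.

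Of 8 further genes reported as MTF1 targets, 7 were tested, and 1 fell and 0 rose by edgeR's quasi-likelihood test, with 1 lower and 1 higher at an unadjusted p under 0.05, against 13.9% and 9.07% of all genes called lower and higher. Without DMSO replicate 1, 2 rose (SELENOH and SELENOW) and 1 fell, against 22.5% and 23.5% of all genes. The gene that fell was SLC40A1, which encodes ferroportin, the only known exporter of cellular iron. It had 2.68, 4.88, 4.75, 5.60 and 4.62 CPM in DMSO replicates 1 to 5 and 1.67, 0.949, 2.23, 2.23 and 1.69 CPM in SFN replicates 1 to 5, without overlap, though DMSO replicate 1 was close to the SFN libraries. The log2 fold change was -1.35 (SE 0.26, edgeR quasi-likelihood adjusted p = 0.0029), and all 19 alternatives called it. SELENOH, a nuclear selenoprotein, had a profile like that of MT2A, at 375.9 CPM in DMSO replicate 1, 61.3 to 80.2 CPM in the other DMSO libraries and 72.4 to 153.1 CPM in SFN. Its log2 fold change was -0.18 with all libraries and 0.71 without DMSO replicate 1 (edgeR quasi-likelihood adjusted p = 0.0032). SELENOW, a small selenoprotein, was not called with all libraries (log2 fold change 0.42) and was called without DMSO replicate 1 (0.62, edgeR quasi-likelihood adjusted p = 0.001). With the term for short transcripts, SELENOH had a log2 fold change of -0.03 and was not called. In that fit SELENOW (0.37) was called higher and SLC40A1 (-1.24) lower, against 25.7% and 25.3% of all genes. CSRP1 and GCLC were called in none of these fits, with log2 fold changes of 0.16 and -0.30 with all libraries.

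Copper is the other physiological metal that metallothionein binds. Of 11 copper-handling genes, 10 were tested and 0 were called by edgeR's quasi-likelihood test, with 0 at an unadjusted p under 0.05, against 23.0% of all genes called. When DMSO replicate 1 was left out, 4 rose (SOD1, COX17, ATOX1 and COMMD1) and 0 fell, against 22.5% and 23.5% of all genes. With the term for short transcripts, 1 rose (SOD1, log2 fold change 0.33) and 0 fell, against 25.7% and 25.3% of all genes. In that fit COX17, ATOX1 and COMMD1 had log2 fold changes of -0.09, -0.05 and 0.01. SOD1, the cytosolic copper-zinc superoxide dismutase, had 788.3 CPM in DMSO replicate 1, 240.0 to 293.8 CPM in the other DMSO libraries and 357.7 to 525.8 CPM in SFN. The copper importer SLC31A1 had a log2 fold change of 0.16 (95% interval -0.05 to 0.38).

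Inducers that often act on metallothionein genes together with zinc were read from 2 further lists. Of 7 genes of the electrophile and heat shock responses, 5 rose and 0 fell by edgeR's quasi-likelihood test, against 9.07% and 13.9% of all genes. Log2 fold changes were 4.34 for HSPA1B and 3.84 for HSPA1A, inducible HSP70 chaperones, 1.42 for HMOX1, heme oxygenase, 1.3 for GCLM, a glutathione synthesis subunit, and 1.27 for DNAJB1, an HSP40 co-chaperone. NQO1 and TXNRD1, the 2 not called with all libraries, had log2 fold changes of 0.31 and 0.61 (edgeR quasi-likelihood adjusted p = 0.18 and 0.058). All 7 rose without DMSO replicate 1, against 22.5% of all genes. The lists were chosen with earlier results of these data known, and the paper names HSPA1A and HSPA1B as highly induced. The share of this list that rose is therefore not an independent result. Of 7 glucocorticoid-responsive genes, 5 were tested, 0 rose and 1 fell, against 9.07% and 13.9% of all genes. The gene that fell was SGK1, a kinase (log2 fold change -0.67, SE 0.13, edgeR quasi-likelihood adjusted p = 0.0027), while FKBP5 had a log2 fold change of -0.19 (SE 0.18) and TSC22D3 one of 0.52 (SE 0.24). TSC22D3 was, without DMSO replicate 1, called higher (0.79) and SGK1 and FKBP5 lower (-0.67 and -0.34), against 22.5% and 23.5% of all genes.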

How the data were processed

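RNA was sequenced from RPE-1 cultures given 25 µM SFN or its vehicle for 4 h, with 5 replicates each. The labels do not say whether replicates came from separate cultures, so p-values measure the spread between these samples. The deposited values are raw, unscaled read counts by Ensembl gene, with 1 column per library. Per the study's methods, Lexogen QuantSeq reads were aligned with the Bluebee pipeline. The submitters' processing notes name FastQC, STAR, featureCounts and edgeR with GRCh38, without versions. The strand setting, the treatment of reads with several matches and any use of molecular identifiers are not given in the sources used here.

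Counts were filtered with filterByExpr, scaled by TMM and tested with the quasi-likelihood F-test of edgeR 4.0.16 (R 4.3.3), with Benjamini-Hochberg adjustment over all genes tested. A gene was called at an adjusted p under 0.05. Standard errors were derived from each fold change and its F statistic. DESeq2 1.42.0 and limma 3.58.1 served as alternatives, with other scalings and filters, a replicate block and leaving out each replicate. Quality weights and a term for short transcripts were added after the data had been seen. The model was tested on simulated counts, where 200 of 13226 genes were changed. It recovered 63.0% of those with a log2 change of 1 and 98.0% of those with 2, and 5.29% of calls were false. Whether these rates hold for the measured libraries, where DMSO replicate 1 stood apart, was not tested. Count ratios within a library (0.5 added to each count, at least 10 counts in every library) were compared by an exact permutation test with scipy 1.17.1. Replicates differed by more than sampling noise (chi-square per degree of freedom of 2.77 to 169 over 20 pairs). Positions and transcripts came from GENCODE 44, which held 28145 of the 28380 identifiers, and promoters from RefSeq.

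The genes and lists were chosen with earlier results of these data known. All 8 genes are named. From the lists, called genes are named, with at most 4 others per list by mean CPM, plus the 3 genes whose log2 CPM followed MT2A, MTF1 and SLC30A1 most closely, of which some are not reported here. ATOX1, COMMD1, RPE65, RLBP1, SERPINF1 and TYRP1 fall outside this rule and were named after their values were seen.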

Additional observations from a re-analysis of the deposited data

Results flagged for a closer look

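In 34 groups of 5 libraries (the levels of the 6 tested genes, of SLC40A1 and of the 5 called zinc transporters, the summed metallothionein level, the ratios to MT2A and the level of short transcripts), 1 library stood far from its group in 9. Chance would give about 1.7 if the groups were independent. They are not, since MT2A enters the sum and the ratios and the metallothioneins vary together, so the 9 are not separate events. DMSO replicate 1 was that library in 8 of them. The gap to the nearest library, divided by the range of the group, was 0.956 for MT1E, 0.933 for MT2A, 0.906 for MT1M, 0.892 for MT1X, 0.936 for the summed metallothionein level and 0.881 for the median deviation of short transcripts, in all of which DMSO replicate 1 was highest. It was 0.852 for the log2 ratio of SLC30A1 to MT2A and 0.792 for SLC39A9, in both of which DMSO replicate 1 was lowest. SFN replicate 5 was the highest SFN library for SLC39A9, with a gap of 0.732 of the range.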

How the results depend on the processing

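SLC30A1 kept its direction and its call in all 19 alternatives. The ratios of MT1E and MT1M to MT2A kept theirs in all 11, but those that left out 1 library could not have come out otherwise. Since the groups did not overlap, the exact permutation test then gave the smallest p possible (p = 0.016) whichever library was left out. MT1X was called in none. MT2A reversed to 0.55 without DMSO replicate 1 and to 0.52 with quality weights (limma-voom), both past the threshold. MT1E moved to 0.25 without DMSO replicate 1 and 0.21 with quality weights. The term for short transcripts brought MT1E (-0.54), MT1M (-0.78) and MTF1 (0.32) past the threshold. The cause of these changes was not tested. DESeq2 gave no adjusted p for MT1E. Depth limits MT1F, MT1G and MT1X, whose counts were too low for a ratio.

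Of all genes, 3076 were called, 6251 without DMSO replicate 1, 7915 with quality weights and 6820 with the term for short transcripts, which for the 6 genes tested gave 2, 2 and 4 calls in place of 1. The share of calls that were higher was 39.5%, but 27.5% with library size only, which moved the median log2 fold change of all genes from -0.028 to -0.11, and 50.4% with the term for short transcripts. Of the 16 zinc transporters tested, 5 were called, but 2 with library size only, 3 without a low-count filter, 2 with the replicate block, 11 with quality weights and 12 with the term for short transcripts.

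With each replicate left out in turn, log2 fold changes ranged from -1.69 to -1.45 for SLC30A1, from -0.18 to 0.55 for MT2A, from -0.89 to 0.25 for MT1E, from -0.85 to -0.37 for MT1M, from -0.95 to -0.01 for MT1X and from 0.14 to 0.31 for MTF1. The log2 ratios to MT2A ranged from -0.53 to -0.31 for MT1E, from -0.87 to -0.71 for MT1M and from -2.23 to -1.43 for SLC30A1 (which missed the threshold in 9 of these), the summed metallothionein difference from -0.04 to 0.49, the genes called from 2383 to 6251, the tested genes called from 1 to 2 and the zinc transporters called from 2 to 7.

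The study's methods state that its model allowed for repeated measures, without naming the libraries so linked. The counts showed no clear pairing by replicate number, though a check on so few libraries cannot exclude one. Deviations of same-numbered libraries correlated between -0.267 and 0.484, and no number had both libraries correlate best with each other. With the replicate block 2441 genes were called, and SLC30A1 was called (log2 fold change -1.59, adjusted p = 0.0014). Of the zinc transporters, SLC30A4, SLC30A6 and SLC39A7 were not called with the block (adjusted p = 0.066, 0.053 and 0.093).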
